A study of Mus musculus with 13 samples.

Results

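The serpins are a family of protease inhibitors and of proteins that share their fold. In the liver of wild-type (WT) and *Nod2*-/- mice they were taken as every protein-coding gene whose mouse symbol starts with Serpin. This gave 61 of the 53465 genes in the table: 24 of clade A, 26 of clade B, 3 of clade E, 2 each of clades F and I, and 1 each of clades C, D, G and H. Whole liver was sequenced from 6 WT and 7 *Nod2*-/- mice on the BALB/c background, 1 library per mouse. All 13 mice were male, were treated once as pups with the carcinogen DMBA on the skin, and were then kept on a high fat diet for 30 weeks by the sample labels. The paper describes a diet that was a week longer. The genotypes were bred separately, so genotype and breeding colony cannot be told apart. The paper also reports more liver tumors and more weight gain in male *Nod2*-/- than in male WT mice on this regimen. Tumor burden and body weight of the single mice were not used here, and their part in the differences was not tested. The paper describes the libraries as read pairs. Total counts on genes lay between 14886273 and 20579984 in WT mice (median 16964779.5), and between 13824780 and 19391431 in *Nod2*-/- mice (median 15618467).

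A serpin offers an exposed loop to a protease as bait, and once the loop is cut the serpin changes shape and traps the protease in a covalent complex. The liver secretes many clade A members and the inhibitors of clotting, fibrinolysis and complement into plasma, whereas clade B members mostly stay inside cells and protect them from their own or from leukocyte proteases. Some members have lost inhibition and carry hormones, as *Serpina6* and *Serpina7* do, or fold collagen, as *Serpinh1* does.

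The targeted gene, *Nod2* (ENSMUSG00000055994.15, chromosome 8, 88647315 to 88688474), had 4, 1, 3, 2, 0 and 3 counts in WT mice 1 to 6 and 2, 2, 6, 1, 5, 1 and 4 counts in *Nod2*-/- mice 1 to 7. These counts were too few to check the genotype labels. *Alb*, the main plasma protein gene of hepatocytes, was the most abundant gene of the table, with 859408.8 normalized counts in the lowest and 2120666 in the highest mouse. A normalized count is a mouse's count brought to a common library size, the average of the 13.

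Several libraries stood apart in members of the family. *Nod2*-/- mouse 7 had a summed level of 9 neutrophil marker genes of 16175 normalized counts, against 98.4 to 659 in the other *Nod2*-/- mice and 69.1 to 155 in WT mice. *Nod2*-/- mouse 4 had the highest values of *Alb* and of all 5 near-identical *Serpina1* copies. WT mouse 3 had the highest values of *Serpina6* and *Serpinh1*. Values without one of these mice are given for many of the members they moved, not for all.

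Of the 61 members, 33 had enough counts to be tested. Another 13 had no count in any mouse, and 24, these 13 included, had at most 3 counts in every mouse. The 4 others below the filter were *Serpina3j* and *Serpinb2*, with at most 4 counts in a mouse, and *Serpinb9b* and *Serpini1*, with at most 14. Clade A had 20 tested members of 24, clade B only 5 of 26 and clade I none of 2. The counts of the 61 members made up 3.08% ± 0.35 (SD, n = 6) of all counts in WT mice and 3.11% ± 0.37 (SD, n = 7) in *Nod2*-/- mice. The difference between these shares was smaller than the spread between mice.

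Scaled for library size and exon length (RPKM, reads per kilobase of exon in a library of fixed size), levels in WT liver ran over 4 orders of magnitude, as the plot of levels shows. *Serpina3k*, a kallikrein-binding member of clade A, led with 5994 ± 1306 (SD, n = 6), the highest mean of all members. *Serpina1b*, *Serpina1a* and *Serpina1c*, mouse counterparts of the gene for the elastase inhibitor α1-antitrypsin, followed with 2158 ± 169, 1512 ± 208 and 1419 ± 256. The last 2 of these overlapped within their spread. *Serping1*, *Serpinf2*, *Serpina6* and *Serpina3n* lay together at 376 ± 42.6, 359 ± 49.2, 354 ± 175.0 and 339 ± 63.8 in WT mice and were not separated by their spread. *Serpina5*, the protein C inhibitor, had the lowest mean of the tested members, 0.340 ± 0.125, not separated by its spread from *Serpinb1a* at 0.364 ± 0.258. *Serpina12* stood in the lower part of the secreted members, with 14.8 ± 7.71 in WT and 40.4 ± 11.98 in *Nod2*-/- mice.

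**Figure D1:**
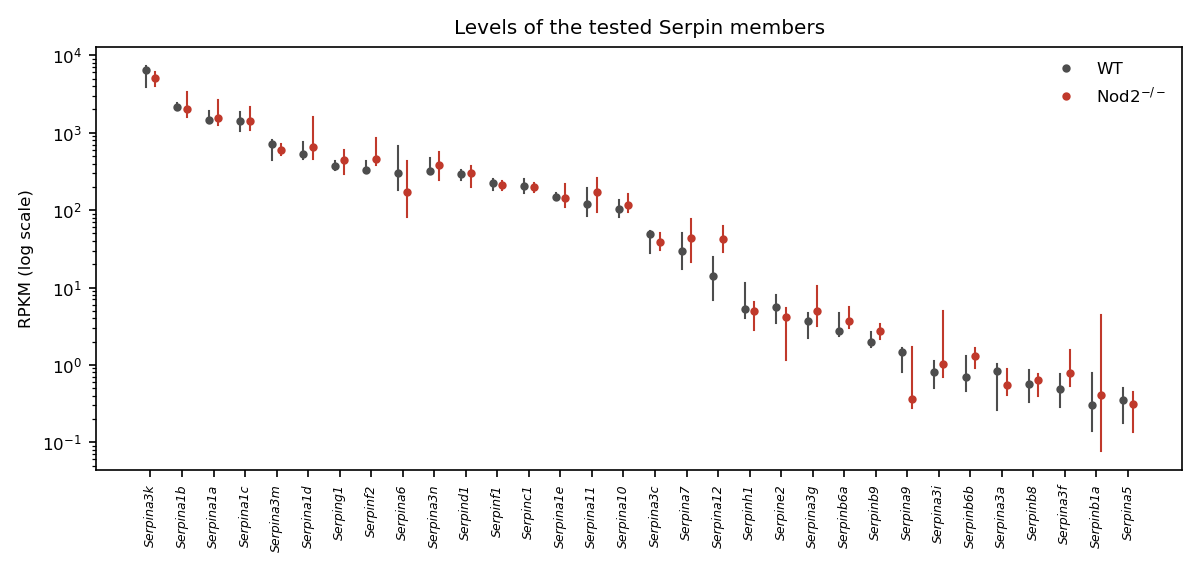
Levels of 32 of the 33 tested members in RPKM (reads per kilobase of exon, scaled for library size), on a log scale, ordered by their mean in WT mice. Points are medians and lines run from the lowest to the highest mouse (6 WT, 7 *Nod2*-/-); *Serpina12* is the member whose lines do not overlap.

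The comparison asks how the family differed in liver between the genotypes under this regimen. At 5% FDR by edgeR's quasi-likelihood test, 1 of the 33 tested members was higher in *Nod2*-/- mice and 0 were lower. Over all 13545 genes tested, 0.65% were called higher and 0.509% lower (88 and 69 genes). At an unadjusted p under 0.05 the members numbered 7 higher and 0 lower, against 12.9% and 10.2% of all genes tested. DESeq2, which gave an adjusted p for 35 members and 15892 genes, called 1 member higher and 0 lower, beside 3.81% and 3.45% of its genes (605 and 549). By voom with quality weights, on the same 33 members and 13545 genes as edgeR, 2 members were higher and 0 lower, beside 3.83% and 2.39% of all genes (519 and 324). Below, called means past 5% FDR by edgeR unless another tool is named. The values of 1 member did not overlap between the groups, in the higher direction, as for 0.753% of all genes tested, and those of 0 members in the lower direction (0.687% of all genes). The fold change was above 0 for 21 members and below 0 for 12, with a median log2 fold change of 0.17 beside 0.02 over all genes tested, of which 52.3% were above 0.

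The member that rose was *Serpina12* (ENSMUSG00000041567.3, chromosome 12, 104028769 to 104044443 of GRCm38, minus strand). It encodes vaspin, a secreted serpin first described in the visceral fat of obese rats, which inhibits the kallikrein Klk7. WT mice had 424 normalized counts in the lowest, 855 in the median and 1515 in the highest mouse, and *Nod2*-/- mice had 1748, 2589 and 3800. The groups did not overlap, each of the 7 *Nod2*-/- mice having more than any of the 6 WT mice, of which mice 1, 2 and 6 were the low ones. The means were 903 ± 471 (SD, n = 6) and 2470.0 ± 733 (SD, n = 7), with a log2 fold change of 1.45 (SE 0.31, 2.74-fold, edgeR adjusted p = 0.0422).

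The call of *Serpina12* was close to its threshold. By edgeR, its adjusted p was 0.0889 without WT mouse 1, 0.109 without WT mouse 2, 0.0725 without WT mouse 4 and 0.0564 without WT mouse 6. It was 0.0526, 0.0802, 0.0523, 0.0519 and 0.0802 by edgeR without *Nod2*-/- mouse 2, 4, 5, 6 or 7. The call remained without WT mouse 3 or 5 or *Nod2*-/- mouse 1 or 3. Over all 22 alternatives the log2 fold change stayed between 1.31 and 1.66, with adjusted p from 0.000351 to 0.109. None of the 43-base windows of *Serpina12* transcripts occurs exactly in another gene of the reference annotation. Reads mapped with mismatches were not examined.

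Since vaspin is also made by fat cells, 4 adipocyte markers were examined, and all were below the filter. *Adipoq* had at most 5 counts in a mouse, *Plin1* at most 3 and *Lep* at most 1. *Cfd*, the most abundant of the 4, reached 34 counts in 1 mouse. The summed level of the 4 genes was 0.819 to 7.67 normalized counts in WT mice (median 3.30) and 0 to 41.9 in *Nod2*-/- mice (median 2.94). In whole liver, fewer cells of a type and less RNA per cell cannot be told apart.

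**Figure D2:**
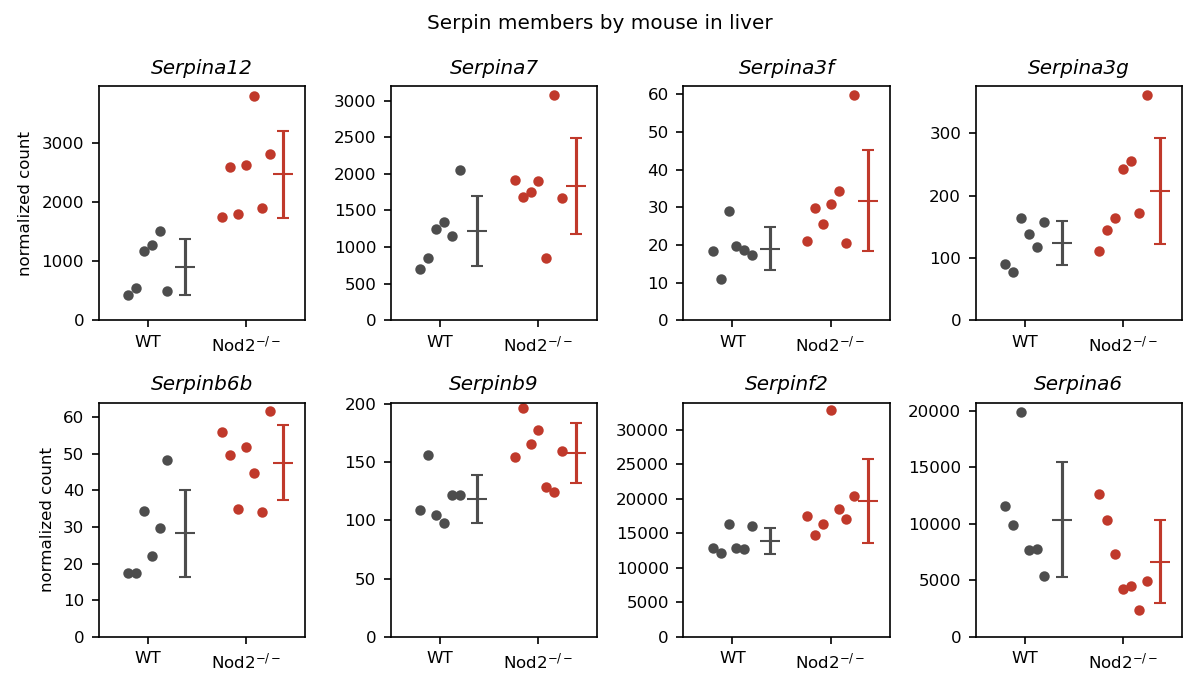
Normalized counts of 8 members in each mouse (points, 6 WT and 7 *Nod2*-/-), with the mean and SD beside them; each vertical axis starts at 0. The groups are apart for *Serpina12* (WT at most 1515, *Nod2*-/- at least 1748) and overlap for the other 7 members.

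*Serpina12* lies in a cluster of 23 clade A genes on chromosome 12 (103614786 to 104414329), of which 19 were tested. Its tested members had 11 log2 fold changes above 0 and 8 below, from -0.82 to 1.45 with a median of 0.13, and *Serpina12* was the only one called. Its protein-coding neighbours were not called, *Serpina9* and then *Serpina11* on one side and *Serpina5* on the other. *Serpina5* had at most 18.0 normalized counts in a mouse and a log2 fold change of -0.23 (SE 0.30, edgeR adjusted p = 0.67). *Serpina9*, a serpin of germinal center B cells, had WT values of 49.9, 89.9 and 100.9 normalized counts (lowest, median, highest) and *Nod2*-/- values of 16.7, 21.9 and 102.6. Of the 7 *Nod2*-/- mice, 4 lay below all WT mice and mouse 1 above them, with a log2 fold change of -0.82 (SE 0.43, edgeR adjusted p = 0.267). This value was -1.17 without *Nod2*-/- mouse 1 and -0.67 without *Nod2*-/- mouse 5. *Serpina9* is named here after its values were seen, as are *Serpina6*, *Serpina3i*, *Serpinb1a* and *Serpina11*. *Serpina11* had a log2 fold change of 0.45 (SE 0.23, edgeR adjusted p = 0.258), and 40.8% of its exon bases are also annotated to the transcript gene *Gm28577* on the same strand.

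**Figure D3:**
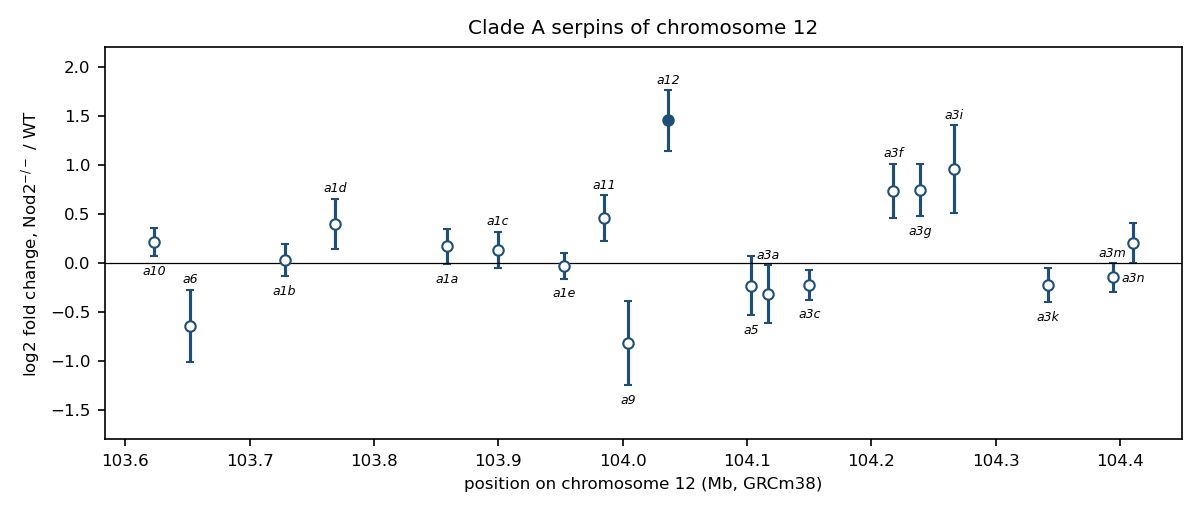
Log2 fold change (*Nod2*-/- over WT, with its SE) of the 19 tested clade A members of chromosome 12 against gene position in GRCm38; labels omit "Serpin", and *Serpina1b* and *Serpina3m*, whose gene models are long, are drawn at the end that holds their last exon. The filled point is *Serpina12* at 1.45.

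Upstream of *Serpina12* the reference promoter is shown because this was the member called. The 250 bases before its start (RefSeq, GRCm38.p6, chr12:104044444-104044693, minus strand) read as follows, with capitals for the motif TTGCNNAA, a C/EBP-like sequence.
Serpina12: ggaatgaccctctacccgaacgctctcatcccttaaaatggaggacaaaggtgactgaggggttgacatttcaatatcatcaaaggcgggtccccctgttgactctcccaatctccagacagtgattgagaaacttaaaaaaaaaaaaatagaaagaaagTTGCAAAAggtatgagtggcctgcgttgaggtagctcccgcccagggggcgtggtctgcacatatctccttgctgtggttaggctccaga
The match starts at -90 relative to the start. Of 33 tested members 25 had a promoter of 300 bases (250 before and 50 after the start) in the table. Searched on both strands, TTGCNNAA was found in 8 of the 15 clade A members among them. A member was counted when any of its promoters held the motif, as it was in 12.2% of all 27025 genes, whereas 10.8% of all 32851 single promoters held it. Near-identical *Serpina1* copies are 4 of these 8, and over all clades 9 of the 25 members held it. The motif GTTAAT was found in 7 of the 15, in 8 of the 25 and in 8.24% of all genes (7.1% of promoters). The 5 *Serpina1* copies, whose promoters share a run around this motif, are 5 of these 7. ATCAAT, which HNF6 sites contain, was found in 4 of the 15, of which 3 are *Serpina1* copies, in 5 of the 25 and in 8.63% of all genes (7.54% of promoters). The TATA box motif TATAAA was found in 4 of the 15, in no further member of the 25, and in 15.7% of all genes (13.6% of promoters). For the STAT-like motif TTCNNNGAA the values were 4 of the 15, 5 of the 25 and 9.55% of genes (8.3% of promoters). The *Serpina12* window holds TTGCNNAA alone of these 5 motifs.

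The *Serpina1* genes are the mouse counterparts, in several copies, of the gene for α1-antitrypsin, the main plasma inhibitor of neutrophil elastase. Which copies inhibit elastase was not examined. None of the 5 tested copies was called. Log2 fold changes were 0.17 (SE 0.18) for *Serpina1a*, 0.02 (SE 0.16) for *Serpina1b*, 0.13 (SE 0.18) for *Serpina1c*, 0.39 (SE 0.26) for *Serpina1d* and -0.03 (SE 0.13) for *Serpina1e*. *Nod2*-/- mouse 4 was the highest mouse for each copy, with 37216 normalized counts of *Serpina1d* against at most 17748 in the other 12. Without this mouse the log2 fold changes of *Serpina1a* to *Serpina1e* were 0.02, -0.11, 0.03, 0.10 and -0.15. Other mice moved them the other way. Without WT mouse 6, *Serpina1a* had 0.24 and *Serpina1c* 0.22. Without *Nod2*-/- mouse 7, *Serpina1b* had 0.09 and *Serpina1e* 0.03, and without *Nod2*-/- mouse 6 *Serpina1d* had 0.49.

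The copies share long stretches, so counts may have been split among them. Of the 43-base windows of their transcripts, 81.2% for *Serpina1c*, 60.04% for *Serpina1a*, 55.0% for *Serpina1d*, 40.9% for *Serpina1e* and 34.2% for *Serpina1b* also occur in another gene. Here and below a window stands for a single read, and the mate of a read pair, which may differ between copies, was not considered. Summed into 1 feature, the 5 copies had 166487 to 219205 normalized counts in WT and 144534 to 306774 in *Nod2*-/- mice. The groups overlapped, with a log2 fold change of 0.11 (SE 0.18, edgeR adjusted p = 0.747). *Serpina1b* took 47.6% ± 2.0 of their counts in WT and 45.0% ± 2.2 in *Nod2*-/- mice. The reference genome is of another strain than the BALB/c mice, and the number of *Serpina1* copies is known to differ among mouse strains.

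The sequences show how alike the copies are and where they differ. Over 1239 coding bases (GENCODE M21 transcripts), pairs of copies were 96.3% to 98.5% identical, and 86 positions differed in at least 1 copy. The 60 bases with the most differing positions, coding bases 1101 to 1160, hold 18 of them, shown in capitals. The exposed loop that meets the protease is known to be the most variable part among these copies. The stretches lie on the minus strand of chromosome 12, at chr12:103853757-103853816, chr12:103728324-103728383, chr12:103895094-103895153, chr12:103763762-103763821 and chr12:103947100-103947159 for *Serpina1a* to *Serpina1e*.
Serpina1a: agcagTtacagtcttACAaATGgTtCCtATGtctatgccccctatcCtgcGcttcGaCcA
Serpina1b: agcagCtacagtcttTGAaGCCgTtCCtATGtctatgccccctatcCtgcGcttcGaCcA
Serpina1c: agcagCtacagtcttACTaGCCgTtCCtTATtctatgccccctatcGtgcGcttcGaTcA
Serpina1d: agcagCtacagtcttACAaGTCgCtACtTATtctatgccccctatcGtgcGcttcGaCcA
Serpina1e: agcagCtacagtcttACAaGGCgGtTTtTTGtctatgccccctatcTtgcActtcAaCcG
Their promoters also share a run of 59 bases (RefSeq, GRCm38.p6), for *Serpina1a* at chr12:103863621-103863679 on the minus strand, with GTTAAT in capitals.
shared run: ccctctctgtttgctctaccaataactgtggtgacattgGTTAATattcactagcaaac

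The *Serpina3* genes are the mouse relatives of human antichymotrypsin, expanded into many copies with different target proteases. *Serpina3k* was the most abundant, with 132017, 218387 and 246567 normalized counts (lowest, median, highest) in WT and 134972, 172255 and 210349 in *Nod2*-/- mice. All *Nod2*-/- mice lay below the WT median, yet the groups overlapped, WT mouse 3 being the lowest of all. Its log2 fold change was -0.23 (SE 0.18, edgeR adjusted p = 0.447), and 17.0% of its 43-base windows occur in other genes. *Serpina3m*, whose gene model shares its start with *Serpina3k*, had a log2 fold change of -0.15 (SE 0.15). This value was -0.26 without WT mouse 3 and -0.09 without WT mouse 6. *Serpina3n*, an acute phase member, had a log2 fold change of 0.20 (SE 0.20). For this member it was 0.09 without *Nod2*-/- mouse 4 and 0.31 without WT mouse 6.

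Lower levels and positive fold changes were seen for 3 neighbouring members. *Serpina3g*, an intracellular inhibitor of lysosomal cathepsins in leukocytes, had 76.8, 128 and 164 normalized counts (lowest, median, highest) in WT and 111, 172 and 362 in *Nod2*-/- mice. Of the *Nod2*-/- mice, 5 lay above all WT mice, with a log2 fold change of 0.74 (SE 0.26, edgeR adjusted p = 0.122). *Serpina3f* had 10.96, 18.6 and 28.9 in WT and 20.5, 29.7 and 59.8 in *Nod2*-/- mice. For it 4 *Nod2*-/- mice lay above all WT mice and only WT mouse 3 reached into their range, with a log2 fold change of 0.73 (SE 0.28, edgeR adjusted p = 0.139). *Serpina3i* had 18.6, 29.6 and 40.9 in WT and 25.4, 37.7 and 183 in *Nod2*-/- mice, where mouse 7 stood far above the next value of 50.3. Its log2 fold change was 0.95 (SE 0.45, edgeR adjusted p = 0.219), and 0.29 without mouse 7. Without that mouse those of *Serpina3g* and *Serpina3f* were 0.55 and 0.51. Between 15.6% and 19.6% of the 43-base windows of these 3 members occur in other genes. Summed over its 10 members, *Serpina3* had a log2 fold change of -0.20 (SE 0.17, edgeR adjusted p = 0.508).

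Hormone carriers differed in direction, and neither was called. *Serpina7*, thyroxine-binding globulin (chromosome X), had 697, 1200 and 2056 normalized counts (lowest, median, highest) in WT and 856, 1751 and 3080 in *Nod2*-/- mice. The groups overlapped, with 6 of 7 *Nod2*-/- mice above the WT median and mouse 5 below it, and the log2 fold change was 0.59 (SE 0.27, edgeR adjusted p = 0.205). *Serpina6*, corticosteroid-binding globulin, had 5359, 8819 and 19845 in WT and 2375, 4956 and 12665 in *Nod2*-/- mice. Of the *Nod2*-/- mice, 4 lay below all WT mice and mouse 1 above 5 of them. The log2 fold change was -0.64 (SE 0.37, edgeR adjusted p = 0.305). It was -0.37 without WT mouse 3 and -0.89 without *Nod2*-/- mouse 1. Of 8 genes of hormone binding and steroid response, all tested, none was called, with a median log2 fold change of -0.20. Among them *Nr3c1*, the glucocorticoid receptor, had -0.30 (SE 0.12, edgeR adjusted p = 0.152) and *Alb*, the most abundant, 0.21 (SE 0.23). For *Alb*, *Nod2*-/- mouse 4 was the highest at 2120666 normalized counts, beside a *Nod2*-/- median of 1347475.

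Angiotensinogen, *Agt*, is also a serpin by its fold, although its symbol keeps it outside the family as counted here. It had 4706, 5437 and 6376 normalized counts in WT and 4191, 6021 and 7128 in *Nod2*-/- mice (lowest, median, highest), with a log2 fold change of 0.11 (SE 0.13). Of 8 renin angiotensin genes, 5 were tested and none was called, with a median of 0.11. *Agtr1a*, the main angiotensin receptor of the liver, had a log2 fold change of 0.65 (SE 0.16, edgeR adjusted p = 0.0601), and *Ace* 0.74 (SE 0.29, edgeR adjusted p = 0.158).

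Among the inhibitors of clotting and fibrinolysis, *Serpinf2* encodes α2-antiplasmin, the main plasma inhibitor of plasmin. It had 12087, 12881 and 16375 normalized counts (lowest, median, highest) in WT and 14735, 17523.5 and 32945 in *Nod2*-/- mice. The groups overlapped only through WT mice 3 and 6, and *Nod2*-/- mouse 4 stood far above the next value of 20424. The log2 fold change was 0.51 (SE 0.18, edgeR adjusted p = 0.117), and 0.34 without *Nod2*-/- mouse 4. Its neighbour on chromosome 11, *Serpinf1*, which encodes the anti-angiogenic pigment epithelium-derived factor, had a log2 fold change of -0.12 (SE 0.10), and -0.19 without WT mouse 3.

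*Serpinc1*, antithrombin, had 23799, 29399 and 35667 normalized counts (lowest, median, highest) in WT and 24255, 28168 and 31477 in *Nod2*-/- mice. All *Nod2*-/- mice lay within the range of the WT mice, with a log2 fold change of -0.07 (SE 0.12, edgeR adjusted p = 0.742). This value was -0.14 without WT mouse 3 and -0.017 without WT mouse 2. *Serpind1*, heparin cofactor II, had 8805, 10510 and 12010 in WT and 7199, 10843 and 13396 in *Nod2*-/- mice. The groups overlapped here too, with a log2 fold change of 0.06 (SE 0.14, edgeR adjusted p = 0.829) that was just below 0 (-0.00081) without *Nod2*-/- mouse 4. *Serpina10*, the protein Z-dependent inhibitor, had 0.21 (SE 0.15), and 0.12 without *Nod2*-/- mouse 4. Of 12 coagulation and fibrinolysis proteases, all tested, none was called, and their median was 0.02. *Plg*, the precursor of plasmin and the most abundant of them, had 0.08 (SE 0.12).

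*Serpine2*, protease nexin 1, an inhibitor of thrombin and plasminogen activators at cell surfaces, had 480, 766 and 1116 normalized counts (lowest, median, highest) in WT and 159, 573 and 736 in *Nod2*-/- mice. All 7 *Nod2*-/- mice lay below the WT median and mice 4 and 7 below all WT mice. The log2 fold change was -0.64 (SE 0.30, edgeR adjusted p = 0.221).

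Of 8 serpin receptors and cofactors, all tested, none was called, with a median of 0.12. *Vtn*, which encodes vitronectin, the most abundant of them, had a log2 fold change of 0.41 (SE 0.16, edgeR adjusted p = 0.154), *Thbd*, thrombomodulin, 0.52 (SE 0.21, edgeR adjusted p = 0.158) and *Lrp6* -0.20 (SE 0.09, edgeR adjusted p = 0.188).

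*Serping1*, the C1 inhibitor of complement and contact activation, had 12564, 14327 and 16756 normalized counts (lowest, median, highest) in WT and 11168, 16958 and 23343 in *Nod2*-/- mice. Here 4 *Nod2*-/- mice lay above all WT mice and 1 below them, with a log2 fold change of 0.21 (SE 0.16, edgeR adjusted p = 0.435). It was 0.12 without *Nod2*-/- mouse 4, the highest mouse. None of its 6 target and related proteases of the C1 and lectin pathways was called, with a median of -0.02. *C1s1*, the most abundant, had 0.03 (SE 0.10).

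*Serpinh1* encodes the collagen chaperone HSP47, which inhibits no protease. It had 162, 213 and 469 normalized counts (lowest, median, highest) in WT and 115, 202 and 261 in *Nod2*-/- mice. WT mouse 3 stood alone at the top, the next WT mouse having 271. The log2 fold change was -0.41 (SE 0.25, edgeR adjusted p = 0.334), and -0.14 without WT mouse 3. WT mouse 3 also had the highest summed level of 8 collagen genes, 3045 normalized counts, and of 8 stellate cell and fibroblast markers, 7047. Of the 8 collagen genes, all tested, none was called, with a median of -0.11. *Col4a1*, the most abundant, had 0.66 (SE 0.25, edgeR adjusted p = 0.142) and *Col5a2* 0.70 (SE 0.22, edgeR adjusted p = 0.0966).

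The intracellular clade B members were low in whole liver, and their 5 tested members all had fold changes above 0, with none called. The clade made up 0.00287% ± 0.00053 of counts in WT and 0.00395% ± 0.00088 in *Nod2*-/- mice. *Nod2*-/- mouse 7 had the highest share, 0.00582% against at most 0.00402% in the other 6, and WT mouse 3 had 0.00391%, the highest of its group. *Serpinb8*, which inhibits furin, had the smallest log2 fold change of the 5, 0.08 (SE 0.23). This value was -0.05 without WT mouse 6 and 0.22 without WT mouse 2. *Serpinb9*, which protects cells from granzyme B, had 97.6, 115 and 156 normalized counts (lowest, median, highest) in WT and 124, 160 and 196 in *Nod2*-/- mice. Only WT mouse 2 reached into the range of the *Nod2*-/- mice, with a log2 fold change of 0.42 (SE 0.14, edgeR adjusted p = 0.104).

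*Serpinb6b* had 17.4, 25.9 and 48.3 normalized counts in WT and 34.1, 49.6 and 61.7 in *Nod2*-/- mice. The groups overlapped through WT mice 3 and 6. Its log2 fold change was 0.74 (SE 0.25, edgeR adjusted p = 0.112), and it was past 5% FDR by voom with quality weights (adjusted p = 0.046) and by no other of 22 alternatives, whose adjusted p ran from 0.046 to 0.265. *Serpinb6a*, the most abundant tested member of the clade, had 212, 249 and 424 in WT and 270, 330 and 505 in *Nod2*-/- mice. Only WT mouse 3 lay within the range of the *Nod2*-/- mice, and the log2 fold change was 0.36 (SE 0.18, edgeR adjusted p = 0.246). The strand setting of the counting is not given in the sources used here, and exons of some members overlap genes on the opposite strand. This was so for 34.4% of the exon bases of *Serpinc1* (with *Zbtb37*) and 31.5% of *Serpina1c* (with *B430119L08Rik*). For *Serpinb6a* the shares were 14.1% with *Nqo2*, 10.8% with *1110046J04Rik* and 4.46% with *Ripk1*.

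*Serpinb1a* inhibits neutrophil elastase, cathepsin G and proteinase 3 inside neutrophils. It had 5.42, 11.5 and 29.7 normalized counts (lowest, median, highest) in WT and 2.99, 15.4 and 171 in *Nod2*-/- mice. The top value was that of *Nod2*-/- mouse 7, and the other 12 mice had at most 29.7. The log2 fold change was 1.42 (SE 0.76, edgeR adjusted p = 0.273), and 0.15 without mouse 7. Without both that mouse and WT mouse 3 it was -0.03.

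**Figure D4:**
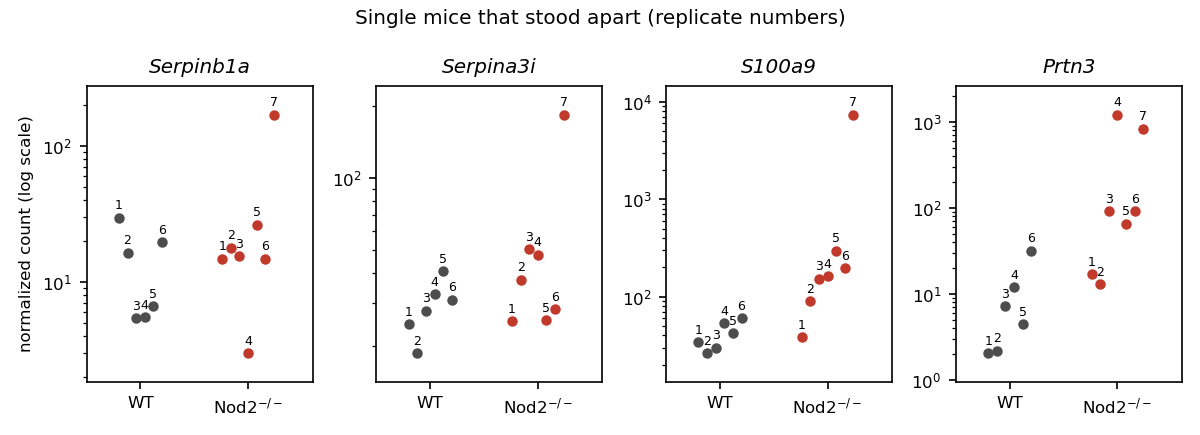
Normalized counts on a log scale of *Serpinb1a* and *Serpina3i* beside the neutrophil marker *S100a9* and the neutrophil protease gene *Prtn3*, with replicate numbers at the points (6 WT, 7 *Nod2*-/-). *Nod2*-/- mouse 7 is the highest for the first 3 genes (171, 183 and 7379), and *Nod2*-/- mice 4 and 7 are the highest for *Prtn3*.

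The same mouse was the highest for the neutrophil markers. Of 9 such genes 4 were tested and none was called by edgeR or voom, whereas DESeq2 called *S100a8* and *S100a9* higher. The 4 genes had a median log2 fold change of 3.42, and of 1.28 without *Nod2*-/- mouse 7. *S100a9*, the most abundant, had 26.3, 37.9 and 59.8 normalized counts (lowest, median, highest) in WT and 38.1, 162 and 7379 in *Nod2*-/- mice (log2 fold change 4.85, SE 1.26, edgeR adjusted p = 0.0656). Without mouse 7 its log2 fold change was 1.92. Log2 fold changes of *S100a8*, *Csf3r* and *Cxcr2* were 5.40, 1.98 and 1.79 (edgeR adjusted p = 0.0673, 0.123 and 0.201), and 2.01, 0.63 and 0.09 without mouse 7. The part of neutrophils in the values of *Serpinb1a*, *Serpina3i*, *Serpina3f* and *Serpina3g* was not tested.

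Among 8 leukocyte serine proteases, targets of clade A and B serpins, only *Prtn3*, which encodes proteinase 3, was tested. It had 2.05, 5.82 and 31.9 normalized counts (lowest, median, highest) in WT and 12.9, 92.2 and 1223 in *Nod2*-/- mice, and its log2 fold change was 4.97 (SE 1.17, edgeR adjusted p = 0.0549). *Nod2*-/- mice 4 and 7 had the highest summed levels of the 8 genes, 1235 and 1255 normalized counts, against at most 113 in the other 5 and 37.7 in WT mice. Of 5 cysteine cathepsins none was called, with a median of 0.16. *Ctsl*, the most abundant, had a log2 fold change of 0.35 (SE 0.22), and 0.14 without *Nod2*-/- mouse 6.

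Genes that regulate hepatocyte and acute phase transcription numbered 12, all tested, with 0 called higher and 1 lower and a median log2 fold change of -0.18. The list mixes both kinds of gene. Log2 fold changes were above 0 for 3 of the 12, *Socs3*, *Cebpd* and *Stat3* (0.77, 0.55 and 0.34, none called). The gene called lower was *Onecut1*, which encodes the liver factor HNF6. It had 270, 448 and 732 normalized counts (lowest, median, highest) in WT and 103, 124 and 393 in *Nod2*-/- mice, with a log2 fold change of -1.44 (SE 0.32, edgeR adjusted p = 0.0422). Only *Nod2*-/- mouse 1 and WT mouse 5 made the groups overlap. By edgeR its adjusted p was above 0.05 without WT mouse 1, 2, 4, 5 or 6 (0.0889, 0.111, 0.0845, 0.0511 and 0.0556) and without *Nod2*-/- mouse 3, 4, 5, 6 or 7 (0.0537, 0.0895, 0.0547, 0.0681 and 0.0856). *Hnf4a*, the most abundant of the 12, had -0.34 (SE 0.10, edgeR adjusted p = 0.0805) and *Ghr*, the growth hormone receptor, -0.51 (SE 0.22, edgeR adjusted p = 0.186). Of 7 hepatocyte markers none was called, with a median of -0.03. *Apoa1* had 0.53 (SE 0.23, edgeR adjusted p = 0.198), or 0.32 without *Nod2*-/- mouse 4, and *Cps1* -0.38 (SE 0.15, edgeR adjusted p = 0.15).

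Markers of other cells were counted for the leukocyte and matrix members. Of 8 macrophage and Kupffer cell markers none was called, with a median log2 fold change of 0.46, and their summed level was 2504 to 4824 normalized counts in WT and 2920 to 9817 in *Nod2*-/- mice, mouse 7 being the highest. *Cd5l* and *Timd4* had 0.79 and 0.77 (edgeR adjusted p = 0.148 and 0.193) and *Clec4f*, the most abundant, 0.35. Without mouse 7 these 3 values were 0.43, 0.40 and 0.19, and the median of the list 0.21. Of 8 T and NK cell markers only *Cd4* was tested (0.26), of 8 stellate cell and fibroblast markers none was called (median -0.0029, *Dcn* 0.20), and of 6 endothelial markers none was called (median 0.17, *Pecam1* 0.46, *Cdh5* 0.28, *Clec4g* 0.06). Of 5 mast cell markers only *Kit* was tested, with 1.02 (edgeR adjusted p = 0.0874).

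Of 6 bile duct markers 5 were tested and 1 was called, *Sox9*, a transcription factor gene of bile duct cells. It had 24.1, 49.1 and 77.8 normalized counts (lowest, median, highest) in WT and 77.05, 122.5 and 164 in *Nod2*-/- mice, where only WT mouse 6 reached the lowest value. *Sox9* rose with a log2 fold change of 1.29 (SE 0.25, edgeR adjusted p = 0.0324), beside *Spp1*, the most abundant, at 1.30 (SE 0.44, edgeR adjusted p = 0.109). The median of the list was 0.24, as *Epcam* had 0.24, *Krt7* -0.05 and *Krt19* -0.40, and most of the summed level was *Spp1*. The call of *Sox9* was lost without WT mouse 1, 2, 4 or 5 (edgeR adjusted p = 0.0827, 0.0644, 0.066 and 0.0736) and without *Nod2*-/- mouse 4, 6 or 7 (0.0631, 0.0503 and 0.0567). The list's summed level was 592 to 3576 normalized counts in WT (mouse 3 the highest) and 1777 to 6660 in *Nod2*-/- mice. Of 7 lung markers 4 were tested and none was called, with a median of -2.50 and *Sftpc*, the most abundant, at -3.09 (SE 0.85, edgeR adjusted p = 0.0712). Their summed level was 230 to 3160 normalized counts in WT and 41.2 to 513 in *Nod2*-/- mice. The 7 pancreas acinar markers were all below the filter, with at most 5.88 normalized counts in sum, and *Cpa1* and *Pnlip* had no count in any mouse. Of the genes named from lists, some not called with all mice were called by edgeR when 1 mouse was left out. These were *Prtn3* (without WT mouse 3 or *Nod2*-/- mouse 1, 2 or 3), *Agtr1a* (without WT mouse 3 or *Nod2*-/- mouse 1) and *Col4a1*, *Pecam1*, *Cdh5*, *Spp1* and *Sftpc* (without WT mouse 3). With all mice, DESeq2 called *Prtn3*, *Agtr1a*, *Col5a2*, *Pecam1* and *Kit* higher and *Hnf4a* and 3 lung markers, *Sftpc* among them, lower. By voom *Agtr1a*, *Pecam1*, *Cdh5* and *Spp1* were called higher. Both tools also called *Onecut1* lower and *Sox9* higher. The part of these cells in the values of the serpins was not tested.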

How the data were processed

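Liver RNA of 6 WT and 7 *Nod2*-/- mice was sequenced as polyA-selected, strand-specific libraries. Per the labels and the study's methods, Trimmomatic 0.33 served for trimming and TopHat2 2.1.1 for mapping to GRCm38, and the authors deposited whole-number counts per gene, without normalization; the counting program and its strand setting are not given in the sources used here. Of 53465 genes, 53360 were matched to GENCODE M21 by identifier, and 1 row without an identifier was left out. In all 36 pairs of same-genotype libraries the spread exceeded counting error, with chi-square over its degrees of freedom at 10.7 to 159.8, so each library is its own sample.

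Genes kept by filterByExpr (13545, 99.9% of counts) went into edgeR 4.0.16 under R 4.3.3 (TMM scaling, glmQLFit and glmQLFTest, two-sided, no covariate), with Benjamini-Hochberg adjustment over all of them at 0.05. SE is the log2 fold change over the root of F. RPKM is edgeR's CPM over kilobases of the union of exons. A count of at most 3 per library was taken as not detected.

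Lowest, median and highest values are given for members past 5% FDR, members at an unadjusted p under 0.05, members whose groups do not overlap and the most abundant tested member of each clade, and for some others named after their values were seen. Members and the 20 partner and marker lists were chosen with earlier results of these data known. From the lists, genes past 5% FDR, up to 4 at an unadjusted p under 0.05 and the most abundant gene are named, with a few others. *Tf* was not used here, and some genes that fit these rules are not reported here.

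Alternatives were DESeq2 1.42.0, voomWithQualityWeights of limma 3.58.1, RLE, removal of the 20 most abundant genes, 2 other filters, a robust fit, the replicate number as a block, sums of paralogs, and each mouse left out in turn. Leaving out WT mouse 3 and *Nod2*-/- mouse 7 together was added after seeing the data. The tests were also run on simulated data, with results that are not reported here and on which no statement rests.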

Additional observations from a re-analysis of the deposited data

Results flagged for a closer look

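The normalized counts of 32 of the 33 tested members were examined in both groups, 64 groups of values in all, for a highest or lowest mouse far from the others of its group, by a test of the gap over the range. This was so for 11 of them, all at the top of the range, whereas chance flags about 1 in 20 groups. That rate holds for normally distributed values, and the normalized counts were not transformed for this test. The groups are also not independent of each other: the 11 come from 4 mice, and 4 of them are *Serpina1* copies that share reads. *Nod2*-/- mouse 4 stood apart in *Serpina1b* (133971 normalized counts, next 92340), *Serpina1d* (37216, next 17314), *Serpina1e* (5750.1, next 4136) and *Serpinf2* (32945, next 20424). *Nod2*-/- mouse 7 stood apart in *Serpina3f* (59.8, next 34.3), *Serpina3i* (183, next 50.3) and *Serpinb1a* (171, next 26.4). WT mouse 3 stood apart in *Serpinb6a* (424, next 269) and *Serpinh1* (469, next 271). WT mouse 6 stood apart in *Serpina1a* (58118, next 46215) and *Serpina3n* (15966, next 11338).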

How the results depend on the processing

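The log2 fold changes of the 14 members named by rule kept their direction under every alternative run, except *Serpind1*, which was 0.06 with all mice, -0.00081 without *Nod2*-/- mouse 4 and 0.14 without *Nod2*-/- mouse 6. At 5% FDR their side of the threshold changed only for *Serpina12* (9 of the 13 fits without 1 mouse) and *Serpinb6b* (voom with quality weights). Members called higher numbered 2 by voom with quality weights and 0 to 1 without single mice, and members called lower 0 throughout. Over all genes, 88 were called higher and 69 lower. DESeq2 called 605 higher and 549 lower, and voom with quality weights 519 and 324. Without WT mouse 3 and *Nod2*-/- mouse 7 together, an alternative chosen after seeing the data, 408 and 159 were called. Without single mice, genes called higher ranged from 20 to 697 and genes called lower from 20 to 459, the top values being those without WT mouse 3. Counts higher and lower moved beyond 1.5 times without WT mouse 1 (21 and 20), WT mouse 2 (24 and 21), WT mouse 3 (697 and 459), WT mouse 4 (20 and 22), WT mouse 5 (28 and 24), *Nod2*-/- mouse 4 (31 and 36), *Nod2*-/- mouse 6 (53 and 28) and *Nod2*-/- mouse 7 (28 and 26), and genes called lower also without *Nod2*-/- mouse 1 (104) or 3 (107). The cause was not tested. With the replicate number as a block, 17 genes were called higher and 18 lower, with *Serpina12* the 1 member. Deviations of same-numbered mice correlated at -0.31 to 0.34, 1 of 6 pairs above 0.1, and 0 of 6 WT mice correlated best with their own number. No pairing by number was seen, but 6 pairs are too few to show that there was none. With no filter on low counts 48 members were tested, 1 of them called higher and 0 lower.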

Other observations

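Another 7 entries whose symbol starts with Serpin are annotated as pseudogenes and were not counted as members. *Serpina4-ps1*, next to *Serpina12* on chromosome 12 (104080649 to 104086724), was the most abundant of them. It had 1349, 3410 and 5677 normalized counts (lowest, median, highest) in WT and 788, 2121 and 3738 in *Nod2*-/- mice. The groups overlapped, with a log2 fold change of -0.76 (SE 0.33, edgeR adjusted p = 0.195). *Serpina3h*, which lies between *Serpina3g* and *Serpina3i* and shares 43-base windows with both, had 65.6, 69.7 and 96.1 in WT and 64.9, 73.8 and 317 in *Nod2*-/- mice, with a log2 fold change of 0.65 (SE 0.35, edgeR adjusted p = 0.282). *Nod2*-/- mouse 7 had the 317 and mouse 4 the next value, 138, whereas the other 5 *Nod2*-/- mice lay at 64.9 to 83.2, below the highest WT mouse. *Serpina3e-ps* had a log2 fold change of 0.06 (SE 0.30). The other 4 were below the filter, and *Serpinb10* among them had at most 1 count in WT and 13 in *Nod2*-/- mice.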
